A study of Homo sapiens with 4 samples.

Results

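Serum amyloid A (SAA) proteins, complement proteins, lipocalin 2 and pentraxin 3 are secreted proteins of innate defence, and 9 of their genes are described here in human bronchial epithelial cells depleted of the RNA-binding protein QKI. The genes are SAA1, SAA2 and SAA4, the complement genes C3, CFB, C1R and C1S, and the acute-phase genes LCN2 and PTX3. The SAA genes were selected on their mRNA levels in QKI-knockdown against control libraries, and the other 6 were added by function to ask whether the higher SAA levels extend to them. Because the members were chosen by that contrast, their knockdown values are given as a description with no test. All 9 were listed in all 4 libraries, among 16708 genes listed in at least 1 library. All 9 also belonged to the 11829 genes tested, which had a mean of at least 0.5 RPKM (reads per kilobase of gene length, scaled to the mapped reads of the library), and each of the 9 reached that mean in both groups.

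The cells were BEAS2B, a virus-transformed epithelial line from human bronchus grown in serum. Both groups carried an shRNA delivered by virus. The 2 sh-Ctrl libraries came from cells with an shRNA against luciferase (sh-Luc), and the 2 sh-QKI libraries from cells with 1 shRNA (sh-Q3) against a sequence shared by all QKI isoforms. Each group has a replicate 1 and a replicate 2, but neither labels nor methods state that these were grown as separate cultures. The p-values below therefore rest on spread between libraries that may be technical. In a model without a second term, that spread is not between like libraries. The test of the knockdown counts the difference between replicates 1 and 2 as spread. The test of replicate 2 against replicate 1 counts the difference between the groups as spread. The replicate 1 libraries held 20052951 (sh-Ctrl) and 20571555 (sh-QKI) counted reads, and the replicate 2 libraries 34706058 and 34862008. QKI itself measured 8.94 and 14.6 RPKM in the sh-Ctrl libraries and 2.52 and 3.85 RPKM in the sh-QKI libraries. Both sh-QKI libraries therefore lay below both sh-Ctrl libraries for the targeted gene.

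As background, acute-phase genes are induced when cytokines such as interleukin 1 and interleukin 6 reach a cell, through the transcription factors NF-kB, C/EBP and STAT3. The liver makes most of the blood pool of SAA and complement proteins, while airway epithelium makes its own supply at the surface it protects. Complement is a cascade in which C1r and C1s open the classical pathway, factor B drives the alternative pathway, and both lead to the cleavage of C3. QKI binds RNA at ACUAA followed by a pyrimidine and regulates splicing, transport and stability of its targets.

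The SAA genes lie next to each other on chromosome 11 and are close copies, which bears on how reads were assigned to them. On hg19, SAA1 lies at chr11:18287807-18291524 on the plus strand, SAA2 at chr11:18260770-18270215 on the minus strand and SAA4 at chr11:18252902-18258349 on the minus strand. The coding sequences of SAA1 and SAA2 are 369 bases each and are identical at 358 positions (97.0%), whereas SAA4, with 393 coding bases, was identical to each of them at 69.2% of aligned positions. Of the 295 windows of 75 bases along the SAA1 coding sequence, 112 were identical in SAA2 and 213 (72.2%) differed at 3 or fewer bases, the number of mismatches the aligner allowed. The window with the most differences, 9, spans coding bases 230 to 304 and is shown because it is the stretch that best separates the pair. Capitals mark the bases that differ.
SAA1: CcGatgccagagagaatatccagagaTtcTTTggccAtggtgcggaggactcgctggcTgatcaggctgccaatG
SAA2: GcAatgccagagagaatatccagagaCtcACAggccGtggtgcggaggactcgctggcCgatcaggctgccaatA

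Reads that aligned to more than 1 place were left out by the authors, so the level of each SAA gene rests on its distinct stretches. In the chosen SAA1 transcript, 40.9% of all 50-base words and 26.4% of all 75-base words also occurred in transcripts of other genes, all of them SAA2 or its readthrough with SAA4. For SAA2 the shares were 46.7% and 39.0%. Most of SAA4 is also annotated as the 3′ part of the SAA2-SAA4 readthrough gene, which shares 476 bases (75.6%) of the SAA4 exons, and that readthrough has no row in the tables. The values of SAA1 and SAA2 therefore leave out reads from the stretches they share. How ambiguity was judged within the mismatches allowed is not stated, so some reads of one copy could still count for the other. For SAA4 the uncertainty is between SAA4 itself and the readthrough. The levels below are those of the reads that could be assigned, and the sum over the 3 genes is also given.

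SAA1, which encodes a major inducible acute-phase apolipoprotein, measured 12.4 and 53.3 RPKM in sh-Ctrl replicates 1 and 2, and 28.2 and 181 RPKM in sh-QKI replicates 1 and 2. Each sh-QKI library lay above the sh-Ctrl library with its own number, but sh-QKI replicate 1 lay below sh-Ctrl replicate 2, so the groups overlapped. The RPKM ratio of sh-QKI over sh-Ctrl was 2.27 in replicate 1 (95% counting interval 1.96 to 2.62) and 3.40 in replicate 2 (3.23 to 3.57). These intervals cover counting error only. They are exact binomial intervals on the reads of the libraries compared, scaled to the union of the exons because a read could count more than once. Read numbers given below are unscaled unless stated. The group means were 32.9 ± 28.9 RPKM (SD, n = 2) for sh-Ctrl and 104.6 ± 108.1 RPKM for sh-QKI. By level, SAA1 ranked 4104th among the listed genes of sh-Ctrl replicate 1 and 73rd among those of sh-QKI replicate 2.

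SAA2 encodes the second inducible SAA protein. Its levels were 0.837 and 6.22 RPKM in the sh-Ctrl libraries and 2.66 and 21.6 RPKM in the sh-QKI libraries, in the order replicate 1, replicate 2, which is kept below. It showed the same order of libraries as SAA1, with sh-Ctrl replicate 1 lowest and sh-QKI replicate 2 highest. The ratio was 3.17 (2.18 to 4.67) in replicate 1, which rests on 51 and 166 reads, and 3.47 (3.14 to 3.85) in replicate 2, which rests on 656 and 2286. SAA2 means were 3.53 ± 3.81 RPKM (SD, n = 2) and 12.1 ± 13.4 RPKM.

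SAA4 encodes an SAA protein known as constitutive rather than inducible. It was close to unmeasured in replicate 1, at 0.137 RPKM in sh-Ctrl and 0.134 RPKM in sh-QKI, with 2 reads in each library, too few for a ratio. In replicate 2 it measured 2.10 RPKM in sh-Ctrl and 6.39 RPKM in sh-QKI, from 53 and 162 reads, a ratio of 3.04 (2.16 to 4.33). A higher level of SAA4 after QKI knockdown was thus seen in replicate 2 alone, and in replicate 1 the level was too low to show one.

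**Figure D1:**
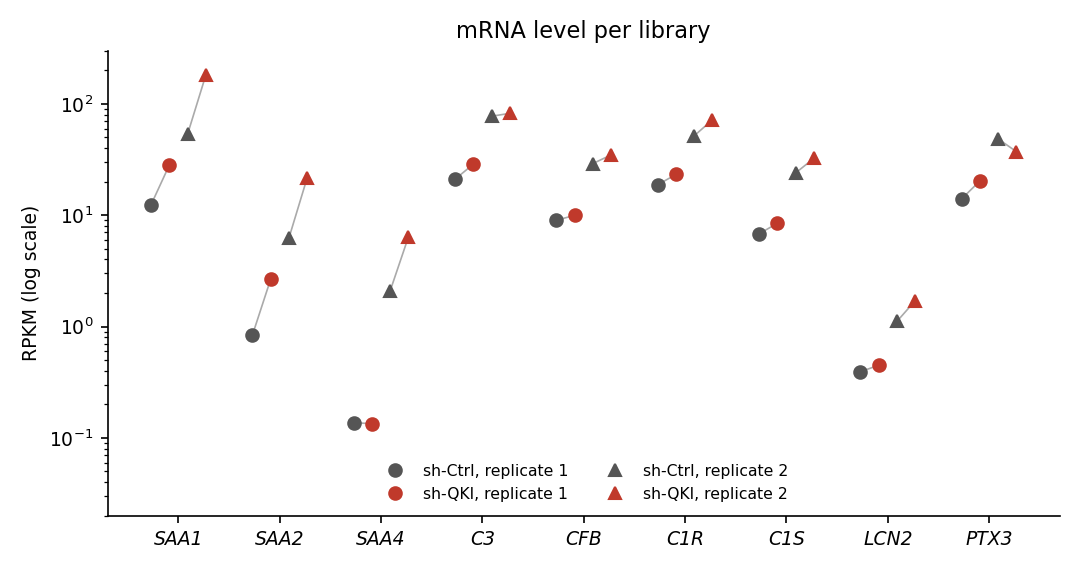
mRNA level of the 9 genes in each library, in RPKM on a log scale. Grey symbols are sh-Ctrl and red symbols sh-QKI libraries, circles replicate 1 and triangles replicate 2, and a line joins libraries with the same number. For SAA1 the 4 libraries range from 12.4 to 181 RPKM, and for all 9 genes the triangles lie above the circles of the same colour.

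Within a library, SAA1 stayed the most abundant of the 3 SAA genes per length. The RPKM of SAA1 over that of SAA2 was 14.8 and 8.57 in the sh-Ctrl libraries and 10.6 and 8.39 in the sh-QKI libraries. These ratios depend on the gene lengths used for RPKM, 1405 bases for SAA1 and 3037 for SAA2. The chosen transcripts are closer in length, at 518 and 576 bases. In sh-Ctrl replicate 1 the reads were 350 for SAA1 and 51 for SAA2. Summed over the 3 SAA genes, the level was 13.4 and 61.6 RPKM in sh-Ctrl and 31.0 and 209.1 RPKM in sh-QKI. The other 6 genes together gave 70.1 and 231.7 RPKM in sh-Ctrl and 91.2 and 260.3 RPKM in sh-QKI. The RPKM ratio of SAA1 to C3 was 0.590 and 0.689 in the sh-Ctrl libraries and 0.980 and 2.20 in the sh-QKI libraries, a direction that the choice of SAA1 fixes.

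C3 is the component on which all complement pathways meet, and it lies at chr19:6677715-6730573 on the minus strand. It measured 21.1 and 77.4 RPKM in sh-Ctrl and 28.7 and 82.2 RPKM in sh-QKI. The ratio was 1.36 in replicate 1 (1.31 to 1.42) and 1.06 in replicate 2 (1.04 to 1.08), and these counting intervals did not overlap. C3 was thus higher in sh-QKI within each number, by a margin that differed between the numbers beyond counting error.

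CFB encodes factor B, the protease of the alternative pathway, at chr6:31913427-31919863 on the plus strand. Its levels were 9.01 and 29.1 RPKM in sh-Ctrl and 9.97 and 34.8 RPKM in sh-QKI. The ratios were 1.11 (1.01 to 1.21) and 1.20 (1.15 to 1.24). A second listed gene, ENSG00000244255, covers 2249 exonic bases of CFB, and 90.7% of the 50-base words of the CFB transcript also lie in it. It measured 7.07 and 21.6 RPKM in sh-Ctrl and 7.43 and 26.3 RPKM in sh-QKI, and over the shared bases its reads and those of CFB cannot be told apart.

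C1R and C1S encode the serine proteases of the C1 complex and are neighbours on chromosome 12, C1R at chr12:7187513-7245203 on the minus strand and C1S at chr12:7096351-7178336 on the plus strand. C1R measured 18.8 and 51.7 RPKM in sh-Ctrl and 23.2 and 72.0 RPKM in sh-QKI, with ratios of 1.24 (1.16 to 1.32) and 1.39 (1.35 to 1.43). C1S measured 6.80 and 23.9 RPKM in sh-Ctrl and 8.46 and 32.4 RPKM in sh-QKI, with ratios of 1.24 (1.15 to 1.34) and 1.36 (1.31 to 1.40). The pair kept a near-constant balance within each replicate number: C1R over C1S in RPKM was 2.76 in sh-Ctrl and 2.75 in sh-QKI replicate 1, and 2.16 and 2.22 in replicate 2. C1R shares 672 exonic bases (14.3%) with the gene C1RL on the same strand, which encodes a related protease.

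LCN2 encodes lipocalin 2, which withholds iron from bacteria, and lies at chr9:130911350-130915732 on the plus strand. It was the lowest of the 9 genes in sh-QKI replicate 2, at 1.71 RPKM, and measured 0.393 and 1.11 RPKM in sh-Ctrl and 0.449 RPKM in sh-QKI replicate 1. The ratio was 1.14 in replicate 1, where the counting interval of 0.499 to 2.57 spans equality, and 1.54 in replicate 2 (1.10 to 2.14). At 29 and 34 reads in the replicate 1 libraries (13 and 15 when scaled), a difference of the size seen in replicate 2 was not detectable.

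PTX3 encodes pentraxin 3, a soluble pattern-recognition protein that binds complement C1q, and lies at chr3:157154639-157161422 on the plus strand. It measured 14.1 and 48.4 RPKM in sh-Ctrl and 20.3 and 37.2 RPKM in sh-QKI. The ratio was 1.45 in replicate 1 (1.30 to 1.62) and 0.767 in replicate 2 (0.727 to 0.809), so the numbers gave opposite directions, on 547 or more reads in each library. PTX3 shares 71 exonic bases with VEPH1 on the opposite strand, and the counting is not stated to use strand.

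**Figure D2:**
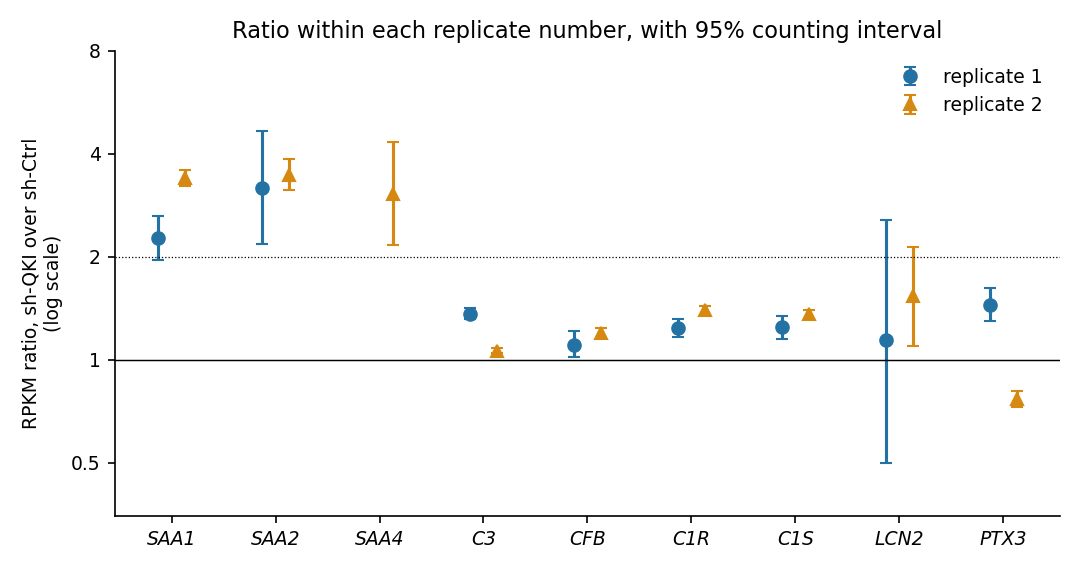
RPKM in sh-QKI over RPKM in sh-Ctrl within replicate 1 (blue circles) and replicate 2 (orange triangles), on a log scale, with 95% exact binomial intervals that cover counting error only. The solid line marks equality and the dotted line 2-fold, and SAA4 in replicate 1 has no point because it had 2 reads in each library. SAA1 and SAA2 lie above 2 in both numbers, C3, CFB, C1R and C1S between 1.06 and 1.39, and PTX3 on both sides of 1.

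Across the members, SAA1 and SAA2 were over 2-fold higher in sh-QKI in both replicate numbers on the log2(RPKM + 0.5) scale, a scale that understates changes of low genes. Over all tested genes, 3 (0.0254%) met that rule, the third being IGF2, and 3 (0.0254%) were over 2-fold lower in both numbers, QKI among them. In group means, 3 members (the SAA genes) were over 2-fold higher, beside 28 (0.234%) of the 11955 genes whose mean reached 0.5 RPKM in sh-Ctrl or in sh-QKI. These counts repeat the contrast that chose the members, and nothing is read from them.

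The other 6 genes did not reach 2-fold in either number. Of these, 5 (C3, CFB, C1R, C1S and LCN2) were higher in sh-QKI in both numbers. Of all tested genes, 3750 (31.7%) were higher in both numbers and 1963 (16.6%) lower. The count over all 9 members was 7, which includes SAA1 and SAA2, chosen on this contrast, so nothing is read from it. The median log2 difference was 1.45 over the SAA genes, 0.27 over the other 6 and 0.03 over all tested genes. Within replicate 1 these medians were 1.15, 0.30 and 0.02, and within replicate 2 they were 1.72, 0.34 and 0.05. The scale is set by a spread of 0.20 (SD over tested genes) in replicate 1 and 0.21 in replicate 2, which describes single genes and not medians. By rank among the 11829 tested genes, from the highest difference down, SAA1 was 4th and 2nd, SAA2 3rd and 3rd, SAA4 6675th and 4th, C3 188th and 4725th, C1R 752nd and 174th, C1S 779th and 249th, CFB 2916th and 1311th, LCN2 4096th and 203rd, and PTX3 88th and 11481st in replicates 1 and 2.

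In none of the 9 genes did both sh-QKI libraries lie above both sh-Ctrl libraries, a pattern that 675 tested genes (5.71%) showed. In each member sh-QKI replicate 1 lay below sh-Ctrl replicate 2. Limma on log2(RPKM + 0.5), without the replicate number in the model, called no tested gene higher (0.0%) or lower (0.0%) in sh-QKI at a Benjamini-Hochberg adjusted p under 0.05. Of the tested genes, 13 had an unadjusted p under 0.05, and voom of limma on the recovered reads without that term also called 0. QKI, the targeted gene, was among the genes not called, so a gene not called by this model cannot be read as unchanged. The count of 0 depends on leaving the replicate number out of the model. The difference between the numbers then enters its error, with an SD over tested genes of 0.81 in sh-Ctrl and 0.66 in sh-QKI. With the number in the model, limma called 58 genes higher and 43 lower in sh-QKI, as given again with the processing alternatives.

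**Figure D3:**
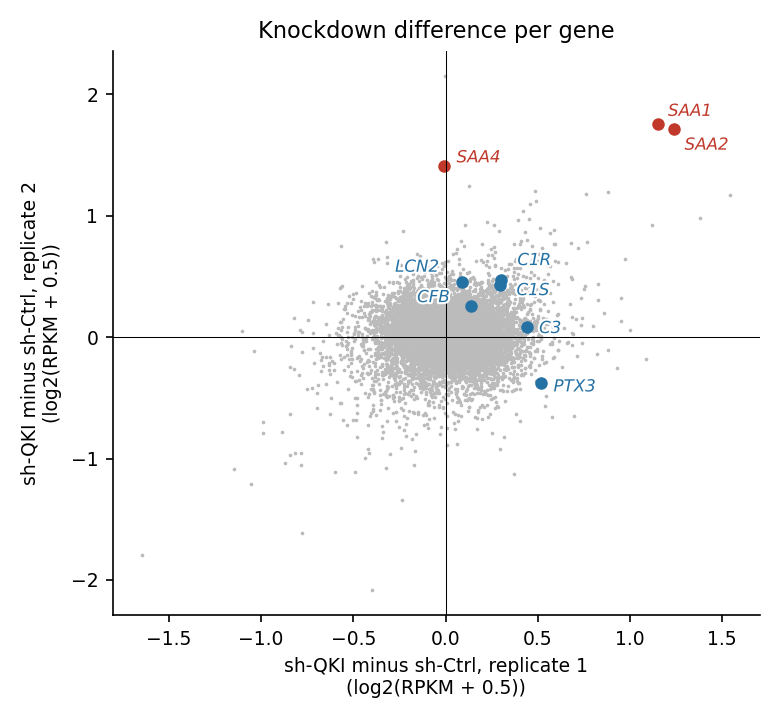
Difference of sh-QKI minus sh-Ctrl in replicate 1 (horizontal) and in replicate 2 (vertical), in log2(RPKM + 0.5), for the 11829 tested genes (grey) with the SAA genes in red and the other 6 members in blue. SAA1 and SAA2 lie at the upper right, at 1.15 and 1.24 in replicate 1 and 1.75 and 1.72 in replicate 2. SAA4 lies on the vertical axis at 1.41, and C3, CFB, C1R, C1S, LCN2 and PTX3 lie at the edge of or inside the cloud.

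The replicate numbers, which the choice of members did not use, stood further apart in these genes than the knockdown groups did. In each of the 9 the mean log2 difference between numbers was larger than that between groups. SAA4 and LCN2 passed the 0.5 RPKM filter only through the replicate 2 libraries, where they are high, so they are given as values with no test. The other 7 members averaged at least 0.5 RPKM in both numbers, and limma called all 7 higher in the replicate 2 libraries (adjusted p from 5.7e-08 for CFB to 0.000181 for SAA1). Of the 11452 tested genes that averaged that level in both numbers, 3951 (34.5%) were called higher and 4029 (35.2%) lower. In RPKM, 6 of the 7 were over 2-fold higher in replicate 2 within both groups, a margin that 723 of the 11452 genes (6.31%) reached. Log2 differences between the numbers ran from 1.30 (PTX3) to 2.57 (SAA2) over the 7, where the median of all tested genes was 0.00.

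For SAA1, replicate 2 exceeded replicate 1 by 4.29-fold in sh-Ctrl and 6.43-fold in sh-QKI, a log2 difference of 2.36 (SE 0.41, adjusted p = 0.000181, limma). For SAA2 the folds were 7.43 and 8.13 and the log2 difference 2.57 (SE 0.42, adjusted p = 0.00011, limma). The group was not in this model, so these standard errors include the knockdown difference on which SAA1 and SAA2 were chosen. SAA4 had a log2 difference of 2.74, which depends on the added 0.5 because replicate 1 held 2 reads per library. Whether the SAA genes differed more between the numbers than the other 6 was not tested.

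Among the complement genes, C1S had a log2 difference between the numbers of 1.81 (SE 0.14), CFB 1.70 (SE 0.11), C3 1.68 (SE 0.13) and C1R 1.52 (SE 0.14). PTX3 differed by 1.30 (SE 0.15), and LCN2 by 1.03, with no test. In C3 the fold between the numbers was 3.68 in sh-Ctrl and 2.86 in sh-QKI, and in PTX3 it was 3.45 and 1.83, whereas in CFB, C1R, C1S and LCN2 it was larger in sh-QKI.

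**Figure D4:**
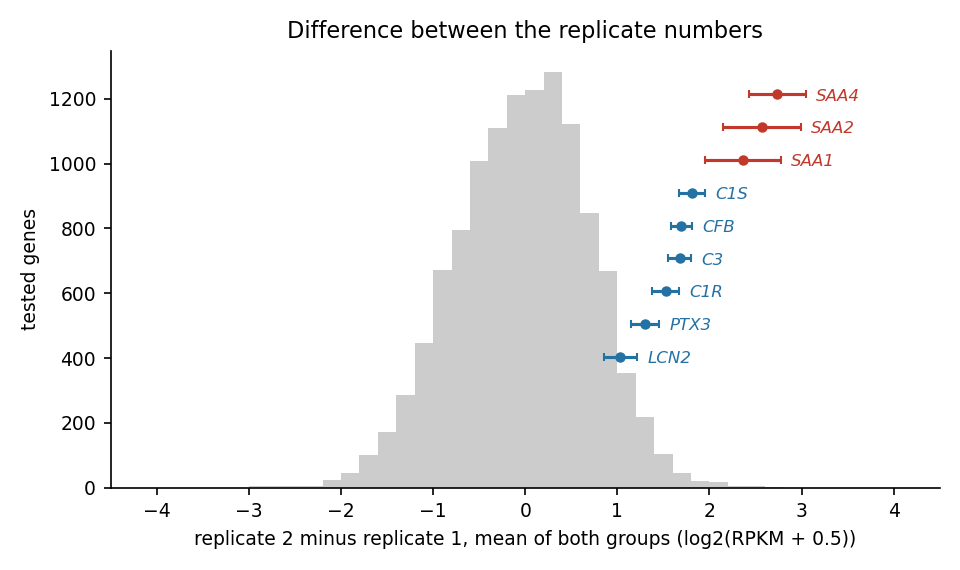
Difference of replicate 2 minus replicate 1, averaged over both groups, in log2(RPKM + 0.5). Grey bars count the 11829 tested genes, and points are the members with their standard error from limma (red, SAA genes; blue, the other 6), placed at heights that only keep them apart. The members lie from 1.03 (LCN2) to 2.74 (SAA4), to the right of the median of all genes at 0.00, and SAA4 and LCN2 passed the filter through replicate 2 alone.

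Other values moved with the replicate number. The replicate 2 libraries held more reads than the replicate 1 libraries, as given above, and the summed level of 9 bronchial epithelial markers was 698.8 and 664.9 RPKM in the replicate 1 libraries (sh-Ctrl and sh-QKI) and 235.1 and 272.3 RPKM in the replicate 2 libraries. Of those 9 markers 6 reached 0.5 RPKM in some library, led by the keratins KRT7, KRT8 and KRT18, while KRT5 was at 0 in all 4 and CDH1 reached at most 0.181 RPKM. KRT7 alone measured 264 and 20.7 RPKM in sh-Ctrl and 233 and 23.8 RPKM in sh-QKI, whereas EGFR was higher in replicate 2, at 15.6 and 19.1 RPKM in sh-Ctrl and 15.4 and 17.7 RPKM in sh-QKI. The sources tie neither a culture, a day nor a read length to a number, so these cannot be told apart, and the part of any of them in the members' values was not tested.

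Markers of other cell types were mostly below 0.5 RPKM, with exceptions in the leukocyte and fibroblast lists. Of 8 hepatocyte markers only SERPINA1 reached 0.5 RPKM in any library, ALB was at most 0.0235 RPKM, and APOB and TTR were at 0 in all 4. Their summed level was 1.13 and 2.69 RPKM in sh-Ctrl and 1.23 and 1.73 RPKM in sh-QKI. Of 10 leukocyte markers only CD68 (12.2 to 17.3 RPKM) and CD14 reached 0.5 RPKM, and the pan-leukocyte gene PTPRC was at most 0.00509 RPKM. CD14 measured 0.815 and 5.22 RPKM in sh-Ctrl and 0.794 and 4.84 RPKM in sh-QKI. It was thus higher in replicate 2, whereas CD68 was lower in replicate 2 in both groups. The leukocyte sums were 18.2 and 21.6 RPKM in sh-Ctrl and 15.7 and 17.1 RPKM in sh-QKI. None of 6 secretory airway markers and none of 5 endothelial markers reached that level, and of 4 ciliated cell markers 1 did. Of 7 fibroblast markers COL1A1 and PDGFRB did while DCN was at 0. COL1A1 measured 51.5 and 18.6 RPKM in sh-Ctrl and 54.1 and 29.5 RPKM in sh-QKI, and the fibroblast sums were 58.6 and 29.0 RPKM in sh-Ctrl and 61.5 and 41.3 RPKM in sh-QKI, lower in replicate 2 than in replicate 1 in both groups.

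To see how far the pattern ran through the pathway, 160 further genes were grouped by role, of which 129 were listed and 80 tested. Their median log2 difference of sh-QKI minus sh-Ctrl was 0.01, against 0.03 over all tested genes. In both numbers 21 of 80 were higher and 16 of 80 lower, where 31.7% and 16.6% of all tested genes were. The counts of the lists below stand against the same shares. None of the 80 was called in either direction by limma without the replicate number in the model, and none had an unadjusted p under 0.05. That model did not call QKI either, so it does not show that the 80 were unchanged. With the replicate number in the model, limma again called none of the 80, and voom called 1 lower, IL1R1 (adjusted p = 0.0109). Between the replicate numbers, 35 of the 76 that averaged 0.5 RPKM in both numbers were called higher and 21 lower in replicate 2. Over all 11452 genes that did so, 34.5% were called higher and 35.2% lower.

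Most other complement components were below the level tested. Of 23, 11 were listed and 3 tested, and C2, C4A, C4B and C5 all had a mean under 0.5 RPKM. Of these, C2, C4A and C4B encode the components that act between C1s and C3, which were thus barely measured. C1RL measured 4.79 and 14.5 RPKM in sh-Ctrl and 6.17 and 19.2 RPKM in sh-QKI, log2 differences of 0.34 and 0.39 in replicates 1 and 2, on exons partly shared with C1R. CFD, which encodes the protease that cleaves factor B, measured 3.07 and 0.798 RPKM in sh-Ctrl and 3.45 and 1.09 RPKM in sh-QKI. Unlike the members, CFD was lower in the replicate 2 libraries, by 1.38 on the log2 scale (adjusted p = 3.58e-06, limma).

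Of 22 complement regulators and receptors, 16 were listed and 6 tested, with a median log2 difference of 0.05. The membrane inhibitor CD59 measured 97.8 and 109 RPKM in sh-Ctrl and 102 and 111 RPKM in sh-QKI. C1QBP, which binds the globular heads of C1q, measured 167 and 85.9 RPKM in sh-Ctrl and 175 and 104 RPKM in sh-QKI. SERPING1 and CFI, which encode regulators in the fluid phase, had a mean under 0.5 RPKM.

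Of 25 other acute-phase genes, 18 were listed and 5 tested, with a median log2 difference of -0.02, and none of the 5 had the same sign in both numbers. CRP, APCS, ORM1, LBP, HAMP and S100A8 were not listed in any library.

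The cytokines that induce acute-phase genes were measured in the same cells. Of 17 cytokines and receptors, 12 were tested, with a median of -0.02, 2 higher and 4 lower in both numbers. IL6 measured 4.34 and 13.3 RPKM in sh-Ctrl and 3.48 and 10.7 RPKM in sh-QKI, log2 differences of -0.28 and -0.31. IL1B measured 3.66 and 11.3 RPKM in sh-Ctrl and 3.43 and 8.95 RPKM in sh-QKI. IL6 and IL1B thus had lower values in sh-QKI than in sh-Ctrl of the same number. Limma called neither difference, with or without the replicate number in the model, and without it QKI was not called either. Both cytokine genes were higher in replicate 2 than in replicate 1, as the members were (adjusted p = 6.33e-07 for IL6 and 8.18e-07 for IL1B, limma). For IL1B that log2 difference was 1.39. IL1A, named after its values were seen, measured 0.798 and 8.38 RPKM in sh-Ctrl and 1.97 and 6.96 RPKM in sh-QKI, so its direction turned between the numbers. IL1R1, the signalling receptor for interleukin 1, measured 1.15 and 2.29 RPKM in sh-Ctrl and 0.681 and 1.47 RPKM in sh-QKI.

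Signal carriers and transcription factors (22 of 23 tested) had a median of 0.02, with 7 higher and 4 lower in both numbers, and the 11 feedback inhibitors a median of 0.00. STAT3, which carries the interleukin 6 signal, measured 19.7 and 20.2 RPKM in sh-Ctrl and 22.3 and 23.5 RPKM in sh-QKI. CEBPD, a C/EBP factor of the acute-phase response, measured 10.4 and 18.3 RPKM in sh-Ctrl and 12.5 and 21.0 RPKM in sh-QKI. Their log2 differences were 0.18 and 0.21 for STAT3 and 0.25 and 0.20 for CEBPD. IKBKG, which encodes the regulatory subunit of the IkB kinase, measured 5.17 and 2.30 RPKM in sh-Ctrl and 4.05 and 2.02 RPKM in sh-QKI, log2 differences of -0.32 and -0.15. PIAS3, an inhibitor of STAT3, gave 0.15 and 0.17.

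NF-kB and interleukin 1 target genes of airway epithelium (15 of 17 tested) were split, with 5 higher and 5 lower in both numbers and a median of 0.00. The chemokine gene CCL2 measured 31.7 and 135 RPKM in sh-Ctrl and 37.9 and 170 RPKM in sh-QKI, and the adhesion gene ICAM1 40.7 and 69.3 RPKM and 47.9 and 85.9 RPKM. The neutrophil chemokine gene CXCL6 went the other way, with 5.65 and 45.2 RPKM in sh-Ctrl and 4.06 and 41.2 RPKM in sh-QKI. In replicate 2 against replicate 1, CXCL6 was higher by 3.04 and CCL2 by 2.11 on the log2 scale (adjusted p = 2.74e-09 and 2.73e-08, limma).

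Receptors and partners of SAA, LCN2 and PTX3 (6 of 13 tested) had a median of -0.03. FPR2, a receptor for SAA, was not listed. TLR4 measured 0.256 and 2.17 RPKM in sh-Ctrl and 0.254 and 1.37 RPKM in sh-QKI. FGF2, a growth factor that PTX3 binds, measured 11.8 and 17.6 RPKM in sh-Ctrl and 9.63 and 12.4 RPKM in sh-QKI, lower within each number by log2 differences of -0.28 and -0.49.

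**Figure D5:**
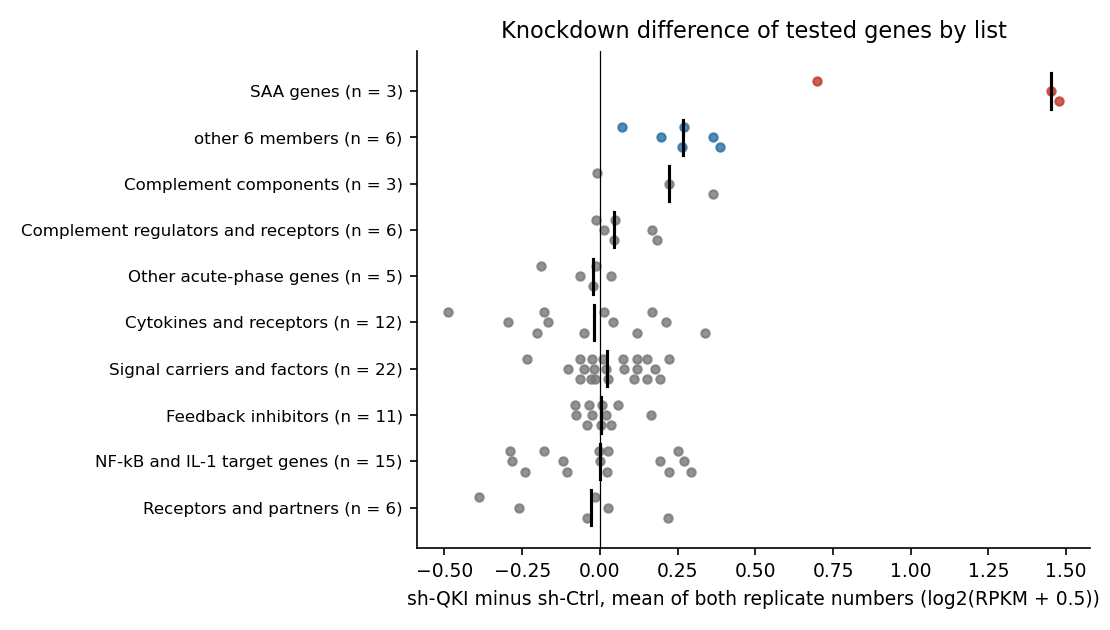
Difference of sh-QKI minus sh-Ctrl, averaged over both replicate numbers, in log2(RPKM + 0.5), for the tested genes of each list (points, spread vertically only to keep them apart) with the median of the list (black bar). The SAA genes have a median of 1.45 and the other 6 members of 0.27, and the medians of the related lists shown lie between -0.03 and 0.22. The list of paralogs, whose only tested gene C1RL had a difference of 0.36, is not drawn.

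Genes with a profile like that of a member were found by the Euclidean distance of log2(RPKM + 0.5), centred on the mean of the gene, over the 4 libraries. SAA2 was at a distance of 0.219 from SAA1 and SAA4 at 0.933, while the other 6 members lay between 1.24 (C1S) and 1.90 (PTX3). Outside the members, the tested genes nearest to SAA1 were PARD6B (0.903), SERTAD4 (1.10), C6orf192 (1.10), ELF3 (1.16) and CCL2 (1.21). PARD6B, a cell polarity gene, measured 1.26 and 5.73 RPKM in sh-Ctrl and 1.65 and 10.9 RPKM in sh-QKI. ELF3, an epithelial transcription factor gene, measured 1.20 and 8.23 RPKM in sh-Ctrl and 1.65 and 10.4 RPKM in sh-QKI. None came as near to SAA1 as SAA2 did, and these distances are a description over 4 libraries that share the separation by replicate number.

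C3 had closer neighbours, of which the nearest were PI4K2B (0.0611), CXCL2 (0.0642), MYLIP (0.115), DRAM1 (0.130) and CDK1 (0.137). CXCL2, a chemokine gene, measured 3.39 and 13.1 RPKM in sh-Ctrl and 4.45 and 14.1 RPKM in sh-QKI, which follows the 4 values of C3 at a lower level.

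The transcripts of the members were searched for the QKI motif, ACUAAC or ACUAAU, on the transcript strand, since QKI binds RNA. SAA1, SAA2, SAA4, C1R and LCN2 had 0 matches in the chosen transcript, and C3, CFB, C1S and PTX3 had 1 each, while 47.6% of 11616 tested genes with a transcript had at least 1. The SAA transcripts are short, at 518 bases for SAA1, 576 for SAA2 and 630 for SAA4, beside a median of 3285.5 bases. The 4 matches are shown with 12 bases on each side, the motif in capitals. Those of C3, CFB and C1S are in the coding sequence and that of PTX3 is in the 3′ UTR.
C3: gcugcuccugcuACUAACccaccucccccu
CFB: uugaagucagggACUAACaccaagaaggcc
C1S: ccccccgugaggACUAAUccagauacaucc
PTX3: ggaacacuugagACUAAUgaaagagagagu

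A match is a description of the sequence and not a site of binding, and introns were not searched.

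The 250 bases before the start of each member in the RefSeq promoter table (GRCh38.p14) were searched for the NF-kB consensus on both strands. The table held promoters for 5 of the 9 members (SAA4, CFB, C1R, LCN2 and PTX3), with 2 entries for C1R. LCN2 and PTX3 had a match, in PTX3 as 2 overlapping matches, and SAA4, CFB and C1R had 0, where 5.21% of 35116 promoters had one. The promoters of LCN2 at chr9:128149203-128149452 and PTX3 at chr3:157436600-157436849, both on the plus strand, are shown with the consensus in capitals.
LCN2: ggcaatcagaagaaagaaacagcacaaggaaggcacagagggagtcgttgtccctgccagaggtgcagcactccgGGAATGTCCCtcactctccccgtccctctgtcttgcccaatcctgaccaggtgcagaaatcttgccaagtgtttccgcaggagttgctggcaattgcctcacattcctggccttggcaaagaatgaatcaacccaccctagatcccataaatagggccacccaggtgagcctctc
PTX3: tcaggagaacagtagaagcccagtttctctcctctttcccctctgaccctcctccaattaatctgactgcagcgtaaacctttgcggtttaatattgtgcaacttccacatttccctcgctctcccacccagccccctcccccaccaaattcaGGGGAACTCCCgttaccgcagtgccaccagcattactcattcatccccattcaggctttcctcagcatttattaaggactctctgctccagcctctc

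The C/EBP-type sequence TTGCNNAA, searched on both strands, was found in the promoters of SAA4 (3 matches), LCN2, PTX3 and both C1R entries (1 each), and in 9.05% of all promoters. The STAT-type sequence TTCNNNGAA was found in the promoter of CFB and in 1 of the C1R entries, and in 6.57% of all promoters. These promoter matches describe the sequence and not binding, and their part in the members' levels was not tested.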

How the data were processed

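Whole-transcriptome mRNA levels of BEAS2B cells were read from 4 tables, 1 per library. The authors deposited gene-level RPKM, which they derived from single-end reads of 50 and 75 bases. They aligned these with Bowtie (no version is stated) to hg19 and the exon junctions of Ensembl protein-coding genes, with at most 3 mismatches and without ambiguous reads. A gene missing from a table was given 0.

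Read numbers were recovered from the RPKM values, of which 100% were whole at a relative tolerance of 1e-11. The recovered gene lengths had a median of 1.25 times the union of the annotated exons (GENCODE on hg19), so a read could count for more than 1 exon, and counting intervals (95%, exact binomial, SciPy 1.17.1) used reads scaled to that union. They cover counting error only.

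Genes averaging 0.5 RPKM or more were tested on log2(RPKM + 0.5) with limma 3.58.1 (R 4.3.3), with a mean-variance trend, two-sided, with Benjamini-Hochberg adjustment over all 11829 genes. The paper describes sequencing done separately at each read length but ties no read length to a replicate number. As the labels name no shared culture, day or run, the replicate number stayed out of the model, and the fit with it is an alternative. The 9 genes and all lists were chosen with earlier results of these data known. The related genes named were those called with or without the block and, in each list, up to 4 with the largest difference of one sign in both numbers. RefSeq supplied the promoters and GENCODE the transcripts. Python 3.11.15 was used.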

Additional observations from a re-analysis of the deposited data

How the results depend on the processing

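With the replicate number as a replicate block, limma called 58 genes higher and 43 lower in sh-QKI, where the model without it called 0. The replicate block with median centring gave 48 and 66, and voom on recovered reads with a replicate block gave 69 and 68. Same-numbered libraries deviated together (correlation 0.953 across genes), but no shared culture, day or run is stated for them. Of the 80 related genes the replicate block called 0, and voom with it called 1 lower, IL1R1 (adjusted p = 0.0109). The other pseudocounts, filters and scalings left these counts at 0, and 8 or 9 members were called between the numbers under each of them. Counting only members that averaged 0.5 RPKM in both numbers, a choice made after seeing the data, leaves 7, since SAA4 and LCN2 passed through replicate 2 alone.

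The log2 difference turned within replicate 1 for SAA4 (-0.0079, on 2 reads per library) and within replicate 2 for PTX3 (-0.38). Leaving out 1 library sets unequal replicate numbers against each other, and 1 group then has 1 library, so only sizes are given. Members over 2-fold higher in sh-QKI numbered 7 without sh-Ctrl replicate 2 or without sh-QKI replicate 1, and 0 without sh-Ctrl replicate 1. Without sh-QKI replicate 2, the 1 member over 2-fold was SAA4, and it was lower in sh-QKI (-1.02). The log2 difference ranged from 0.12 to 2.78 for SAA1, 0.07 to 2.88 for SAA2, -1.02 to 2.42 for SAA4, -0.66 to 1.19 for C3, -0.68 to 1.07 for CFB, -0.42 to 1.19 for C1R, -0.58 to 1.30 for C1S, -0.34 to 0.88 for LCN2 and -0.80 to 0.94 for PTX3. Each of these, apart from SAA1 and SAA2, was below 0 without sh-Ctrl replicate 1 or sh-QKI replicate 2. Few reads limit SAA4 and LCN2 in the replicate 1 libraries, at 2 and at 29 to 34 reads.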
